A study of Mus musculus with 6 samples.

Results

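In one of 2 libraries of MG132-treated fibroblasts, 514 peaks were called in a ChIP of a tethered Nrf1-MafG heterodimer that no other list analysed had nearby. They were chosen by position, as the summits of MG132 replicate 1 with no summit of the other 3 lists within 200 bp. They made up 13.2% of the 3894 summits of that list, and the 4 lists together held 11322 summits. The number depends on the length of the MG132 replicate 2 list (6576 summits): with that list cut to its best 3894 summits it was 1118, and with the vehicle lists alone it was 3128. The remaining 3380 summits of MG132 replicate 1 had a summit of another list within that distance and serve here as the comparison. The choice rests on calls made in these same libraries, so the number 514 describes the lists and is not a test of anything.

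All cells were mouse embryonic fibroblasts of the genotype MafF-/-::MafG-/-::MafK-/-:T-N1G, that is, without any of their own small Maf proteins and expressing T-N1G, in which Nrf1 is tethered to MafG. Treatment was with vehicle or with the proteasome inhibitor MG132 at 1.0 µM, each for 4 h, and chromatin was precipitated with an anti-MafG antibody. There were 2 vehicle, 2 MG132 and 2 input libraries, and no summit list of an input library was analysed here. The vehicle lists held 24 and 828 summits for replicates 1 and 2. The labels do not say whether replicates were separate cultures or whether the cells were 1 clone. No library in the set compared here lacked T-N1G, so calls that do not depend on the heterodimer were not measured.

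Nrf1 (Nfe2l1) is a cap'n'collar basic leucine zipper factor of the endoplasmic reticulum membrane that is removed by the proteasome in unstressed cells. When the proteasome is inhibited it is processed, enters the nucleus and, paired with a small Maf protein, binds antioxidant response elements, among them those of proteasome subunit genes. A summit is the single base of highest enrichment within a called peak, and recurrence in a second library is commonly asked of a weak peak before it is taken as a site. Each summit carries a score, which is −log10 of the p or q value that the authors' peak caller gave the peak. The scores are the authors' values and grow with read depth, which is unknown from these files, so scores are compared within a list and not between lists. A summit absent from a list was not called there, and how much signal that library had at the position is unknown. Positions are those of the mm9 mouse assembly, and genes, exons and sequence at these positions were not analysed here.

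The summits found in MG132 replicate 1 alone had mostly low scores, but they were not just the bottom of the list. Their scores ran from 1.39 to 28.2 with a median of 7.11 (quartiles 5.14 and 9.39), against a median of 12.2 (quartiles 7.98 and 21.2) for the other 3380 summits of the list, which ran from 1.34 to 282. In percentiles of the whole list the medians were 22.5 (95% order-statistic interval 19.7 to 25.7) and 55.9. Of the 514, 446 (86.8%, exact 95% interval 83.5 to 89.6) had a score below the list's median, against 42.8% of the others (41.2 to 44.5). The score ranges overlapped widely, since 104 of the 514 (20.2%) had a score of at least 10 and 202 of the 3380 others (5.98%) had a score under 5. No test was made between the sets, because summits of 1 library are not replicates, and all intervals cover counting error only.

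**Figure D1:**
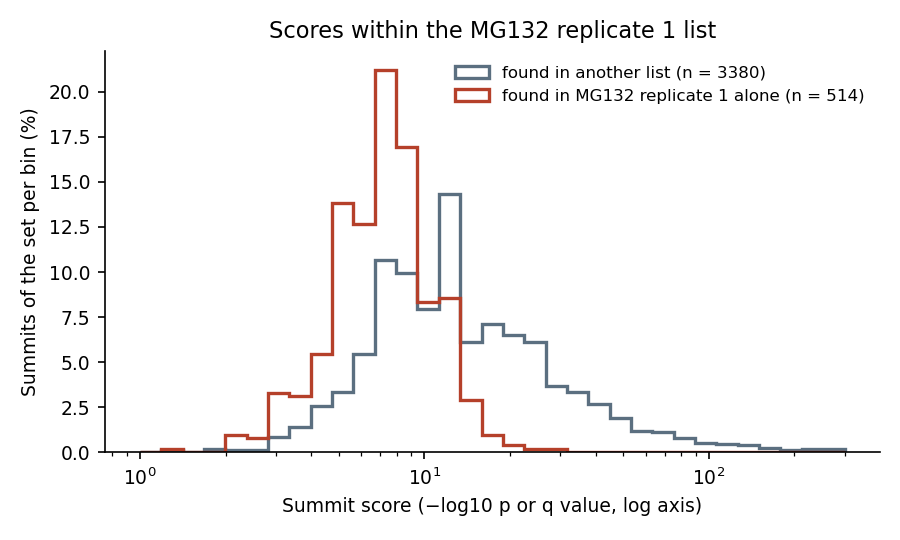
Score of each summit of MG132 replicate 1 on a log axis, as the percentage of each set in each bin, for the 514 summits found in that list alone and the 3380 found in another list. The first set lies mostly between 5 and 10, with a median of 7.11, and ends at 28.2, while the second reaches 282.

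The share of summits without a match fell steadily up the list. Among the lowest 10% by score, 125 of 390 summits of MG132 replicate 1 (32.1%, exact interval 27.4 to 36.9) were in no other list. The share was 14.7% (57 of 389) in the fifth 10%, 5.14% (20 of 389) in the seventh and 0.514% (2 of 389) in the ninth. In the highest 10%, 0 of 389 were without a match, which allows a share of up to 0.944% by the upper bound of the exact interval. Against the full lists, most summits even in the lowest 10% therefore had a partner in another library. With MG132 replicate 2 cut to its best 3894 summits, the number found alone was 1118 instead of 514. Shares by score are not given for that case, so whether most of the weakest summits keep a partner at equal length is not shown. The share also fell with score in MG132 replicate 2, with 86.5% of its lowest 10% and 0.457% of its highest 10% in no other list, and 48% (3158 of 6576) of all its summits. That list was longer by 2682 summits, so its larger share without a partner is fixed in part by its length.

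**Figure D2:**
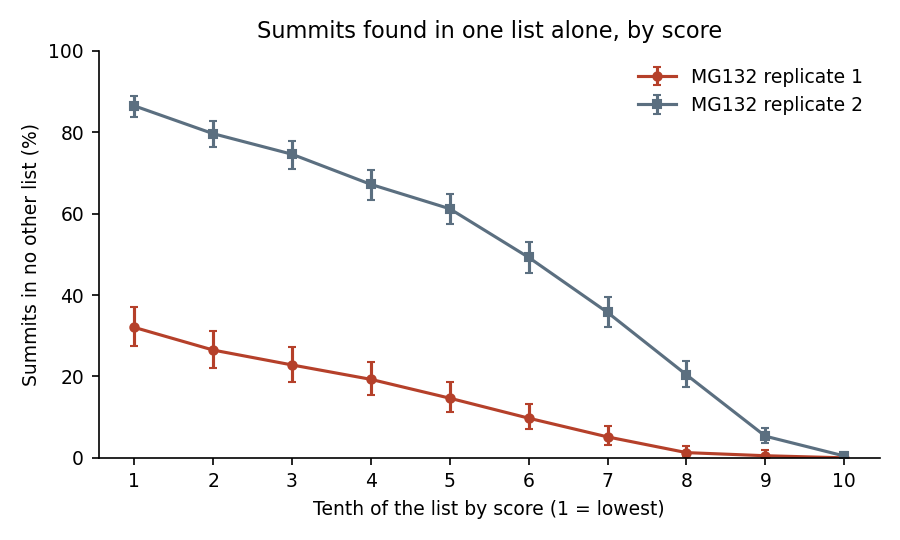
Percentage of summits in no other list for each successive 10% of the MG132 replicate 1 and MG132 replicate 2 lists, ordered by score from lowest (1) to highest (10), with exact 95% intervals. The share falls from 32.1% to 0 in replicate 1 and from 86.5% to 0.457% in replicate 2.

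Many summits of the list carried exactly the same score, and those found alone did so more often. The 3894 scores of MG132 replicate 1 took 685 distinct values, of which 64 were each shared by at least 10 summits. Of the summits found alone, 411 (79.96%, exact interval 76.2 to 83.3) had such a shared value, against 67.7% (66.1 to 69.2) of the others. The share found alone was then compared between the 2 kinds of value on each side of the list's median score. Below the list's median score, 23.8% of the summits with a shared value (362 of 1524, interval 21.6 to 26.0) and 22.7% of those with another value (84 of 370, interval 18.5 to 27.3) were found alone, and the intervals overlap. From the median upward they were 4.17% (49 of 1174, interval 3.10 to 5.48) and 2.30% (19 of 826, interval 1.39 to 3.57), which overlap as well. In that upper part the 2 kinds were not of like score, with median scores of 15.2 for shared and 26.8 for other values. Whether a shared value matters apart from score was not tested.

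The shared values allow summits of equal score to be counted together. At a score of 5.10, 42 of 98 summits were found in this list alone (42.9%). The count was 33 of 161 (20.5%) at a score of 7.61, 18 of 124 (14.5%) at 10.3, 14 of 191 (7.33%) at 12.2 and 3 of 82 (3.66%) at 13.2. The decline with score was not without exceptions, as 35 of 139 summits (25.2%) were found alone at a score of 9.39, against 29 of 142 (20.4%) at 8.48. The exact intervals of those last 2 values, 18.2 to 33.2 and 14.1 to 28.0, overlap.

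Nearly all of the 514 summits lay more than 1 kb from any call in another library. The median distance to the nearest summit of another list was 132 kb (order-statistic interval 113 to 149, quartiles 42.01 and 330). The rule fixed only that it exceed 200 bp. Such distances also depend on how many summits the other lists hold. The same distance for the rest of the list, with the matched summit left out, is not given. The 132 kb are therefore not read as particular to these summits. Of the 514, 493 (95.9%, 93.8 to 97.5) lay more than 1 kb and 466 (90.7%, 87.8 to 93.0) more than 10 kb from any summit of another list. Only 21 lay between the limit of 200 bp and 1 kb, and 14 of these within 500 bp. These 14 had a median score of 9.43, against 5.91 for the 27 between 1 and 10 kb and 7.61 for the 273 between 100 and 1000 kb. The limit of 200 bp thus fell in a sparse range, with 27 matched summits beyond 100 bp and 14 unmatched ones up to 500 bp.

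The 5 summits on either side of the limit had scores between 5.10 and 28.2, and all had their nearest summit in MG132 replicate 2. Just inside the set were chromosome 4 at 149649509 (230 bp from a summit of MG132 replicate 2, score 8.48), chromosome 15 at 81015283 (276 bp, score 9.39), X at 166441420 (331 bp, score 28.2), chromosome 7 at 68455245 (346 bp, score 10.5) and chromosome 10 at 67362320 (353 bp, score 9.47). Just outside it were chromosome 1 at 187143561 (199 bp, score 7.61), chromosome 12 at 3973167 (184 bp, score 13.2), chromosome 10 at 74143778 (160 bp, score 8.33), chromosome 8 at 60107640 (154 bp, score 5.91) and chromosome 10 at 70166404 (150 bp, score 5.10).

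The 21 summits within 1 kb of another list were of 2 kinds. For 11 of them the nearest summit of MG132 replicate 2 was already matched by a different summit of replicate 1, so replicate 1 had an additional summit beside a shared site, 271 to 764 bp from its own summit there. These additional summits had a median score of 9.31. The shared summit on chromosome 1 at 187143561 is an example, because replicate 1 had a further summit 271 bp away at 187143290, 470 bp from the replicate 2 summit, with a score of 4.32. On the same chromosome, the summits at 188555205 and 188555541 (scores 8.48 and 10.3) lay 797 and 461 bp from a single replicate 2 summit. For the other 10, the nearest replicate 2 summit was itself in no other list, so both libraries had a call there at positions 230 to 892 bp apart. Their median score was 8.48.

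The vehicle lists added almost nothing to the choice. Of the 514 summits, 2 had a vehicle summit within 1 kb, both on chromosome 18 and both from vehicle replicate 2 (379 and 399 bp), and both also had a summit of MG132 replicate 2 within 1 kb. The rule had left out every summit with a vehicle summit within 200 bp, so this count is low by choice. Over the whole list, 3128 of 3894 summits had no vehicle summit within 200 bp. The share within 1 kb is not given for the other summits. A single summit of MG132 replicate 1 had a match in a vehicle list and none in MG132 replicate 2. It lay on chromosome 3 at 122959197 (score 20.2), 21 bp from a summit of vehicle replicate 2 and 670 bp from one of MG132 replicate 2. Without vehicle replicate 2 the set grew to 515, and without vehicle replicate 1 it stayed at 514.

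Distance to the reproducible MG132 sites was slightly longer for these summits than for the rest of the list. A site was counted as reproducible where a summit of MG132 replicate 1 and one of replicate 2 were mutually nearest at no more than 200 bp, which gave 3379 sites, and a summit's own site was left out. The median distance was 221 kb (order-statistic interval 193 to 257) for the 514 and 178 kb (166 to 188) for the other 3380. Within 100 kb of a reproducible site lay 28.4% of the 514 (146 summits, exact interval 24.5 to 32.5) and 34.6% of the others (33.0 to 36.2). The 514 had on average 3.32 ± 2.63 (SD over summits) reproducible sites within 1 Mb to either side, against 3.65 ± 2.55, and 12.6% of them (9.90 to 15.8) had none there, against 8.28% (7.38 to 9.26).

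The shortest distances depend on the matching limit. A reproducible site lay within 1 kb of 11 of the 514 (2.14%, 1.07 to 3.80) and of 17 of the 3380 others (0.503%, 0.293 to 0.804). Those 11 are the additional summits beside shared sites described above, which the limit of 200 bp placed in the set, so nothing is read from this difference. Within 10 kb the shares were 4.86% (25 summits, 3.17 to 7.10) and 5.74% (4.98 to 6.58), with overlapping intervals. The share within 10 kb depended on how close summits were counted, since it was 2.23% when the matching limit was 1000 bp and 2.95% when summits of a list within 500 bp were merged. Among themselves the 514 had a median of 1396 kb from one to the next nearest, and 8 had another within 10 kb. Such spacing depends on the number of summits, and no set of equal size from the rest of the list was compared. Neither scatter nor clustering is therefore read from these values.

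**Figure D3:**
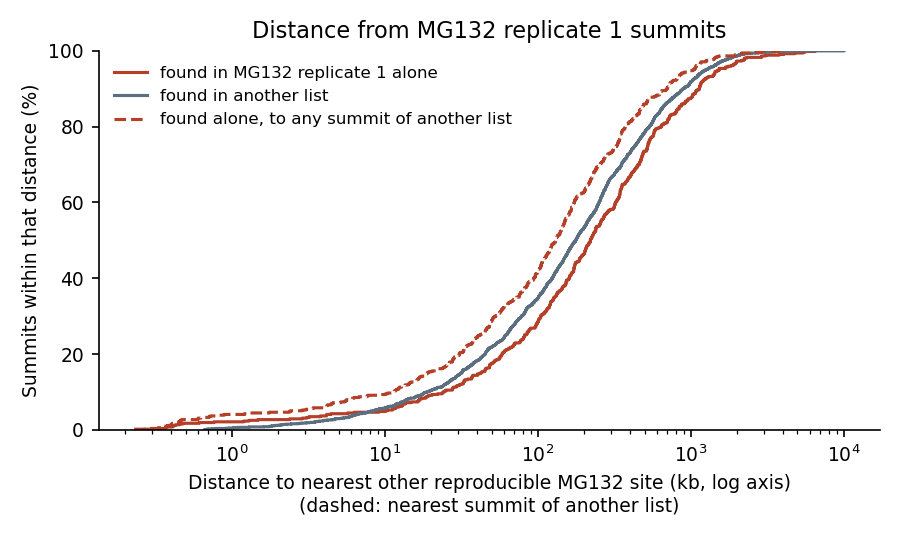
Cumulative percentage of MG132 replicate 1 summits within a given distance (kb, log axis) of the nearest reproducible MG132 site other than their own, for summits found in that list alone and for the others. The dashed line gives the distance of the first set to any summit of another list. The medians are 221, 178 and 132 kb.

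The best-scoring of these summits stood where most of the list was shared. The highest score, 28.2 (rank 530 of 3894), was on X at 166441420. The second was on chromosome 17 at 61262978, with a score of 24.98 that tied for ranks 638 to 662, 150 kb from the nearest summit of another list and 1078 kb from a reproducible site. It was followed by chromosome 5 at 19292728 (score 20.5, 526 kb from another list) and chromosome 10 at 124619794 (score 19.4, 473 kb). Those 3 were the strongest summits of the library with nothing called within 100 kb elsewhere.

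The next 6 were closer to calls of other libraries. Chromosome 17 at 40949461 and chromosome 6 at 51969577 shared a score of 17.3 and lay 26.4 and 16.6 kb from a summit of MG132 replicate 2. Chromosome 10 at 112222957 (score 17.1) lay 96.5 kb, chromosome 5 at 26379403 (score 16.5) 18.99 kb, chromosome 2 at 177784192 (score 16.2) 85.3 kb and chromosome 1 at 164613193 (score 15.7) 110 kb away. Among these 10 best-scoring summits the nearest vehicle summit lay 526 kb away, from chromosome 5 at 19292728. The vehicle lists held only 24 and 828 summits, and this distance is not given for the rest of the list, so nothing is read from it.

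The summits farthest from any other call were on X, in 3 of 5 cases. The summits of MG132 replicate 2 were also sparse on X. Their density per Mb there was 0.414 of the autosomal one for those found alone and 0.386 for the others. Long distances on X are therefore not read as particular to these summits. On X, those at 119275981 (score 7.61), 44885888 (score 10.3) and 117564982 (score 9.39) lay 3789, 2923 and 2509 kb from the nearest summit of another list. The other two were on chromosome 12 at 117897608 (score 12.2, 2157 kb) and chromosome 5 at 95571928 (score 6.71, 1985 kb). In all, 27 of the 514 lay more than 1 Mb from any summit of another list, and their scores had a median of 7.61.

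Summits found alone occurred on all 19 autosomes and on X, in unequal shares. The share of a chromosome's replicate 1 summits that were found alone was highest on chromosome 12 (36 of 174, 20.7%, exact interval 14.9 to 27.5), X (21 of 107, 19.6%, 12.6 to 28.4) and chromosome 5 (53 of 305, 17.4%, 13.3 to 22.1). It was lowest on chromosome 17 (11 of 169, 6.51%, 3.29 to 11.3), chromosome 15 (12 of 146, 8.22%, 4.32 to 13.9) and chromosome 14 (10 of 113, 8.85%, 4.33 to 15.7). The intervals of chromosomes 12 and 17 do not overlap, but these are the extremes of 20 chromosomes and no test was made. Among summits below the list's median score the order was nearly kept (Spearman rho 0.92 over 20 chromosomes, which share the library and most of their summits), with 29 of 80 found alone on chromosome 12 (36.3%) and 8 of 67 on chromosome 17 (11.9%).

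The chromosomes with the highest shares differed between the 2 MG132 lists. In MG132 replicate 2 the share found alone was highest on chromosomes 11 (55.4%), 13 (55.0%), 7 (54.9%) and 14 (54.8%), where replicate 1 had 9.71%, 11.8%, 11.05% and 8.85%. It was lowest on chromosomes 1 (41.6%) and 9 (42.7%), where replicate 1 had 10.96% and 15.1%. Across the 20 chromosomes the rank correlation of the 2 sets of shares was -0.30 (Spearman). It is a description over chromosomes that share their libraries and their reproducible sites. The matched summits of a chromosome are nearly the same in both lists. Its 2 shares are therefore tied by the ratio of its replicate 1 to its replicate 2 summits. That ratio was 0.484 on chromosome 11, 0.497 on 7 and 0.496 on 14, against 0.652 on chromosome 1 and 0.673 on 9. The contrast between the lists is thus in part arithmetic and is not read as a separate finding. For each summit found in replicate 2 alone there were 0.303 found in replicate 1 alone on chromosome 12 and 0.0780 on chromosome 17, against 0.163 over all chromosomes.

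**Figure D4:**
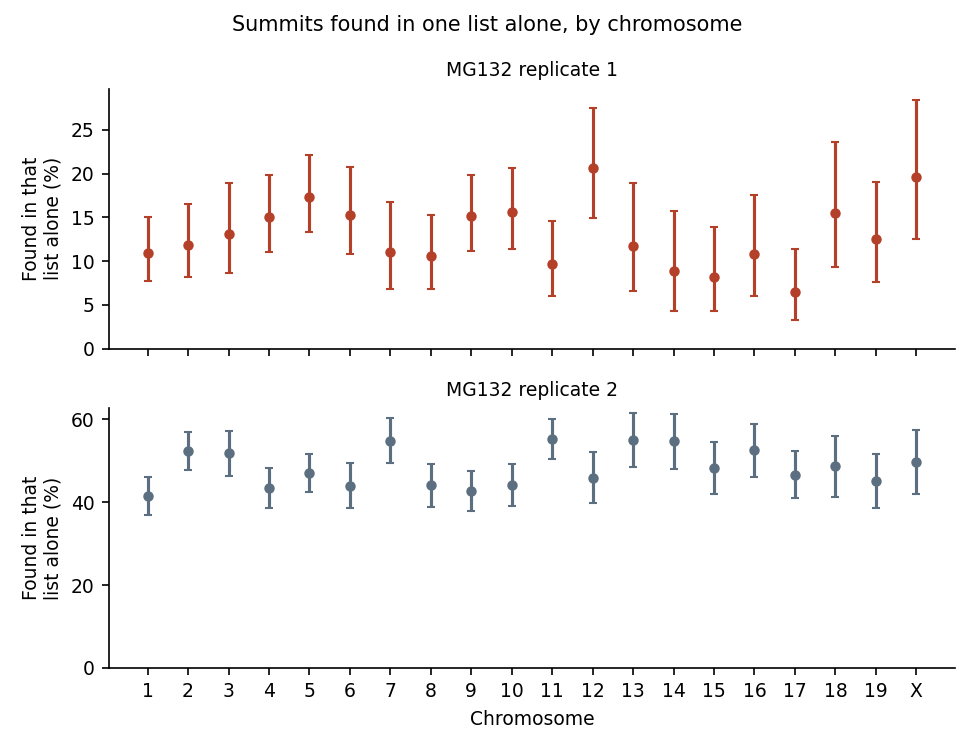
Percentage of each chromosome's summits found in that list alone, for MG132 replicate 1 (top) and MG132 replicate 2 (bottom), with exact 95% intervals. In replicate 1 the shares run from 6.51% on chromosome 17 to 20.7% on chromosome 12, and in replicate 2 from 41.6% on chromosome 1 to 55.4% on chromosome 11.

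On X, summits found alone were less sparse than shared ones, with overlapping intervals. Per Mb, counted from the chromosome's start to the last summit of any list, their density on X was 0.630 of that on the autosomes (exact interval 0.387 to 0.974), against 0.386 (0.308 to 0.478) for the other summits of replicate 1 and 0.414 (0.330 to 0.513) for those found in replicate 2 alone. Of the 21 on X, 4 came from a single stretch, and without that stretch the ratio was 0.510 (0.295 to 0.825). The stretch also held 6 matched summits of replicate 1, which the 0.386 for the other summits still includes, so these 2 ratios are not on the same footing.

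That stretch at the end of X held the only group of more than 2 summits found alone when neighbours no more than 10 kb apart were joined. The 4 summits spanned 15041 bp, at 166431442 (score 13.4), 166441420 (score 28.2), 166443615 (score 5.44) and 166446482 (score 6.43), and the last was the last X summit of any list. Between 166424174 and 166446482, MG132 replicates 1 and 2 had 10 summits each and the vehicle lists had 0, and the nearest earlier summit of replicate 1 was 3893 kb away. In each list 6 of the 10 summits were matched, at 1 to 34 bp, and 4 were not. The 4 unmatched replicate 1 summits had a replicate 2 summit at 627, 331, 602 and 723 bp. For that at 166443615 this neighbour was already matched by another replicate 1 summit, and for the other 3 it was in no other list.

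Within their own lists, the summits of that stretch lay between percentiles 10.4 and 86.4 in replicate 1 (median 62.6) and between 0.0152 and 50.4 in replicate 2 (median 13.6). The highest-ranked of replicate 1 there, at percentile 86.4 of its list, lay 331 bp from the summit ranked last in the whole replicate 2 list. None of the 10 replicate 1 scores there, 4 of summits found alone and 6 of matched ones, was a value shared by at least 10 summits. Over the whole list, 79.96% of the summits found alone and 67.7% of the others had such a value. Whether the sequence at the end of X affects the mapping of reads was not tested.

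**Figure D5:**
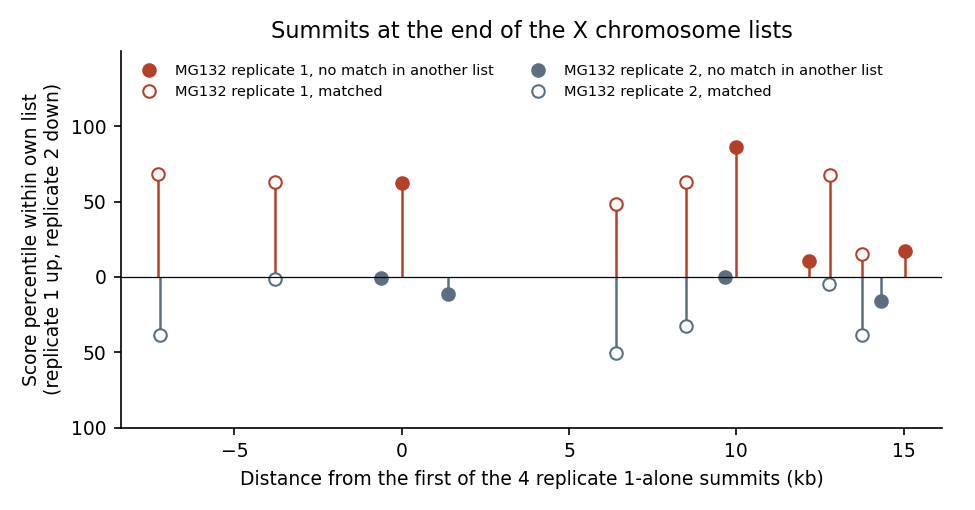
Score percentile, within its own list, of every summit in the stretch at the end of X, plotted by distance in kb from the first of the 4 summits found in MG132 replicate 1 alone, with replicate 1 above and replicate 2 below the line. Filled points have no summit of another list within 200 bp. The filled replicate 1 point at percentile 86.4 faces a filled replicate 2 point at percentile 0.0152 placed 331 bp away.

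Apart from that group there were 2 pairs joined at 10 kb, the pair on chromosome 1 described above and one on chromosome 12 at 18810714 and 18816339. The latter had scores of 5.02 and 11.2 and lay 27.7 and 22.1 kb from the nearest summit of another list. The remaining 506 summits each stood alone at that distance.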

How the data were processed

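For each ChIP library the authors deposited a BED list of summits without a header, whose last column is the −log10 p or q value of each peak. Per the submitters' processing notes, the tools were MACS2 2.1.4, Bowtie2 2.2.9 and bcl2fastq 2.16.0.10, with mm9 as the build. The peak caller's settings, duplicate handling and control library are, in the sources used here, not given. Positions were converted to 1-based coordinates. Groups and replicate numbers came from the sample titles. Read depth is unknown, and a deeper library calls more summits, so the number found in 1 list alone mixes binding with depth. A match was a summit within 200 bp. Shares have exact Clopper-Pearson 95% intervals and medians order-statistic intervals. The matching was checked on simulated lists whose partners lay well inside or far beyond the limit, so distances near the limit were not checked. Computation was in Python 3.11.15 with SciPy 1.17.1, pandas 2.3.3 and NumPy 2.4.6, and figures were drawn with matplotlib 3.10.9. The members and all choices were made with earlier results of these data known. Named sites are the 10 with the highest score, the 5 on either side of the limit, the 5 farthest from another list and groups of 3 or more; other named sites were chosen after their values were seen. Sequence motifs and gene positions were planned and not run, because no mm9 reference was used here.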

Additional observations from a re-analysis of the deposited data

How the results depend on the processing

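Of 59 alternative values for 5 results (the number found alone, their median percentile, the shares near a reproducible site and near each other, and the density on X), 49 stayed close to the reported ones: within 1.5 times for the number, and inside the counting interval otherwise. With a score of at least 10 in MG132 replicate 1 the number was 104 and the median percentile 18.3, both on a shorter list. With MG132 replicate 2 cut to as many summits as replicate 1 the number was 1118. The share within 10 kb of a reproducible site (4.86%) was 3% and 2.23% with matching limits of 500 and 1000 bp and 2.95% with close summits merged. The share within 10 kb of another (1.56%) was 0.406% with a limit of 1000 bp. Leaving out 1 other list at a time, the number ranged from 514 to 3128, the median percentile from 22.5 to 41.9 and the share within 10 kb of another from 1.55% to 4.80%, in each case with the far value without MG132 replicate 2. In that case no share near reproducible sites can be given. Over all settings, the density on X ranged from 0.473 without MG132 replicate 2 to 0.747 with a score of at least 10 (exact interval 0.237 to 1.80). Leaving out the end of X was chosen after seeing the data. No paired analysis was possible because the results describe 1 list and come from no test. The unknown read depth limits every statement on a summit that was not called.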

Other observations

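At the 3379 reproducible sites, which exclude the summits found in 1 list alone, scores were ranked separately in each MG132 list and the percentile in replicate 2 was subtracted from that in replicate 1. The mean difference was highest on chromosome 12 (5.55 ± 2.11, SE over 138 sites), where the share found in replicate 1 alone was also highest, and on X (4.28 ± 2.75, 86 sites). It was lowest on chromosomes 14 (-2.83 ± 2.33, 103 sites) and 11 (-2.55 ± 1.68, 186 sites). Over the 20 chromosomes, this difference and the number found in replicate 1 alone for each found in replicate 2 alone had a Spearman rho of 0.41, as a description of chromosomes that share both libraries. These values were looked at after the shares by chromosome were known, and sites are not replicates.

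The nearest MG132 replicate 2 summit to a summit found in replicate 1 alone was itself in no other list in 221 of 514 cases (43.0%, exact interval 38.7 to 47.4), against 48.0% of all summits of replicate 2.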
